A study of Mus musculus with 36 samples.

Results

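The genes described here are 10 mouse genes of the mesenchymal transition program: the zinc finger repressors Snai1 and Snai2, the basic helix-loop-helix factors Twist1 and Twist2, the zinc finger and homeobox factors Zeb1 and Zeb2, the homeobox factor Prrx1, and the cadherins Cdh1, Cdh2 and Cdh11. They were chosen by symbol, and each symbol matched 1 Ensembl identifier, so the set holds 10 of the 46078 genes in the count table. RNA had been profiled by BRB-seq, in which barcoded samples are pooled early and polyadenylated transcripts are read at their 3′ ends. The cells were transformed mouse astrocytes, labelled Nf1-/- DNp53 in every sample: Nf1, the Ras inhibitor neurofibromin, is lost, and DNp53 is read here as a dominant-negative p53. They were grown in DMEM/F12 with 10% fetal bovine serum, and no line with intact Nf1 and p53 was analysed here. There were 36 libraries of 10 lines, with 1 line of each sex in each of lots 6, 7, 8, 11 and 12, and the lots derive from separate litters. A line has 3 libraries in lots 6 and 12 and 4 libraries in lots 7, 8 and 11, which makes 18 female and 18 male libraries.

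In development and in carcinoma, these factors bind E-box sequences and shift cells from an epithelial to a mesenchymal state. Snail and ZEB factors repress Cdh1, the epithelial E-cadherin, while N-cadherin (Cdh2) and cadherin 11 (Cdh11) join mesenchymal cells. Astrocytes are not epithelial and normally use N-cadherin at their contacts. In gliomas the same factors are studied as part of a mesenchymal state.

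Library totals ranged from 4358098 to 7562901 counts (median 6061120). A library's floor of 3 counts lay between 0.385 and 0.716 CPM, the unit of counts relative to library size, here scaled by the trimmed mean of M-values. Of the 48 library pairs within a line 0 were identical, and every pair differed by more than sampling noise (chi-square over its degrees of freedom, 5.47 to 22.3). The labels do not say that libraries of a line came from separate cultures, so p-values within lots measure the spread between libraries of a line, which may be technical, and each compares 1 female line with 1 male line. Of the astrocyte markers, 5 of 12 had a mean over 1 CPM. Gja1, the gap junction protein connexin 43, lay between 75.7 and 217 CPM in the 10 lines, whereas Gfap reached at most 0.498 CPM and Aqp4 at most 0.712 CPM, so these defining markers of mature astrocytes were at or near the floor. Vim, the mesenchymal intermediate filament vimentin, lay between 2963 and 4921 CPM in all 10 lines. Because these are bulk samples, fewer cells that express a gene and less RNA of it per cell cannot be told apart.

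The E-box bound by Snail and ZEB factors, CAGGTG or its reverse complement CACCTG, was searched on both strands of the 250 bases before each RefSeq start (GRCm38.p6). RefSeq promoter windows were at hand for 5 of the 10 genes: Snai1, Twist1, Twist2, Zeb2 and Prrx1. Of their 8 windows 1 held a match, that of Snai1, while 17.2% of all 32851 windows did. The 3 windows below, whose start is also the gene start in the GENCODE annotation, are shown because Snai1 is known to bind its own promoter and because Snai1 and Twist2 were both called lower in the female line of lot 6, where Twist1 was not. Capitals mark the match, which begins at position -126 from the start.
Snai1, chr2:167537945-167538194, plus strand: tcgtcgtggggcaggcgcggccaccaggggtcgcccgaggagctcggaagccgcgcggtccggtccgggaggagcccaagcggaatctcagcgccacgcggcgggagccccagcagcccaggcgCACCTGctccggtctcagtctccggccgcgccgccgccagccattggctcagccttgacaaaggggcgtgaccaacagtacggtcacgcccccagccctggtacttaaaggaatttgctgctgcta
Twist1, chr12:33957421-33957670, plus strand: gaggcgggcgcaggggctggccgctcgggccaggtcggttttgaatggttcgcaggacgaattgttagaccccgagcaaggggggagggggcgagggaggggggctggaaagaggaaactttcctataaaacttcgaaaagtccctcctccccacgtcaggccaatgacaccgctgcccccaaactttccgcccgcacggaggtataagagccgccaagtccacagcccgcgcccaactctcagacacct
Twist2, chr1:91801211-91801460, plus strand: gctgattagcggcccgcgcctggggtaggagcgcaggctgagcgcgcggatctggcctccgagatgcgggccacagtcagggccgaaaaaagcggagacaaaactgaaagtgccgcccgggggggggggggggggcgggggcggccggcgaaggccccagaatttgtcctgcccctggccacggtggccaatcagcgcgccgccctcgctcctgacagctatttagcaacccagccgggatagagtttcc
No match means only that these letters are not in this window, and binding was not measured.

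Of the 10 genes, 9 passed the filter on low counts, and Cdh1 did not. The 9 genes were first compared between the sexes over the 5 lots, with the libraries of each line summed to 1 sample. None of the 9 passed an adjusted p of 0.05 by edgeR's quasi-likelihood test, where 0% of 12010 genes were called and 841 had an unadjusted p below 0.05. Over all genes, DESeq2 called 56, none of them among the 9, and limma voom on the 36 libraries called 491, with Snai2 and Cdh2 of the 9. Voom took the libraries as units, with 1 correlation within lines shared by all genes. For a gene whose lines differ more than that, its p-value is too small. None of the 9 passed the edgeR test for any difference among the 5 lots either, where 3 genes or 0.025% were called and 1042 had an unadjusted p below 0.05. Their median log2 fold change, female over male, was 0.03, beside 0.01 over all genes tested.

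The lines themselves differed. With the 36 libraries as the units, 9 of the 9 genes differed among the 10 lines (edgeR, adjusted p of 3.45e-13 for Snai2 to 0.0190 for Twist1), beside 51.8% of 12173 genes tested. For 8 of the 9, all but Zeb1, the female to male difference was unlike between lots (adjusted p of 2.41e-09 for Snai2 to 0.0428 for Twist2), beside 29.9% of genes. In lot 6, 5 of the 9 were called, 3 higher and 2 lower in the female line, beside 27.6% of genes. In lot 7, 3 were called, all higher in the female line, beside 10.8% of genes. Lot 8 gave 1 call, lower in the female line, beside 11.4%. Lot 11 gave 1 call, higher in the female line, beside 4.33%. Lot 12 gave 0 edgeR calls, beside 3.8%. At an unadjusted p below 0.05 in lot 12 were 2 of the 9 genes, beside 1866 of 12173, and DESeq2 called 1 of the 9, Twist1, among 583 genes in all. Cdh11 passed the filter only through the lines where it was high, so its calls are not independent of having passed. Without it the calls were 4 of 8 in lot 6, 2 of 8 in lot 7 and 7 of 8 for the difference between lots. In that last test the Twist1 and Twist2 calls were lost under several alternatives, given further below. The median log2 fold change of the 9 genes was 0.24, 0.21, 0.11, -0.15 and 0.16 in the 5 lots in their order, beside 0.06, 0.01, 0.0046, -0.01 and 0.01 over all genes. With library totals in place of the scaled sizes, the median over all genes in lot 6 moved by 0.22 to 0.29, and the calls there became 5 higher and 1 lower.

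**Figure D1:**
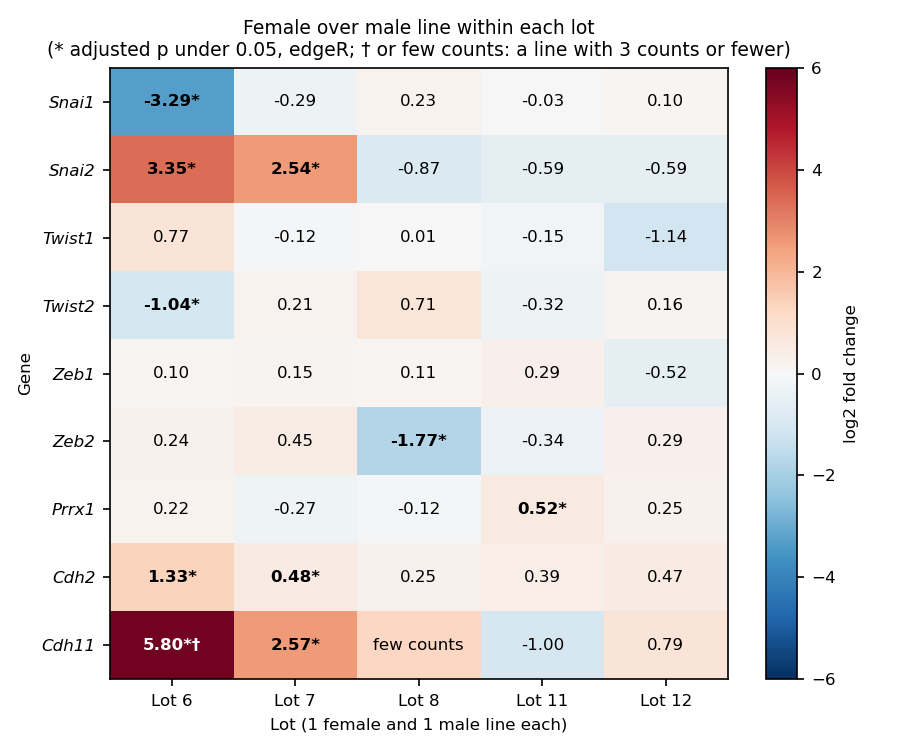
Log2 fold changes of the female over the male line (colour and number) for 9 genes (rows) in 5 lots (columns), from 1 edgeR fit of 36 libraries; an asterisk marks an adjusted p under 0.05, and a dagger or the words few counts mark a line with 3 counts or fewer. Lot 6 holds 5 of the marked cells and lot 12 none, and Cdh2 is the row with a positive value in all 5 lots.

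Snai1 (chromosome 2, 167538195-167542814, plus strand, GRCm38) and Snai2 (chromosome 16, 14705852-14709385, plus strand) encode the Snail and Slug repressors. Snai1 measured 1.03, 1.01 and 0.429 CPM in the 3 libraries of the lot 6 female line, and 7.96, 7.44 and 9.42 CPM in those of the lot 6 male line. The ranges did not overlap, and the female line was lower by a log2 fold change of -3.29 ± 0.41 (SE, adjusted p = 6.07e-08). The lot 6 female line, at 0.822 ± 0.340 CPM (SD, n = 3), was the lowest of the 10, and its range lay apart from that of the next line, lot 7 female, at 4.74 ± 0.995 CPM (SD, n = 4). The other 9 lines followed in overlapping steps up to the lot 8 female line at 8.89 ± 3.15 CPM (SD, n = 4). In lots 7, 8, 11 and 12 the log2 difference lay between -0.29 and 0.23, and none of these passed. Without lot 6, the difference between the sexes no longer varied among lots (edgeR adjusted p = 0.801) and Snai1 no longer differed among lines (adjusted p = 0.146).

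Snai2 moved the other way in lot 6. It measured 42.1, 47.6 and 46.6 CPM in the lot 6 female libraries and 3.15, 4.43 and 5.68 CPM in the male ones. This is a log2 fold change of 3.35 ± 0.40 (SE, adjusted p = 2.16e-08), with no overlap. In lot 7 the female libraries measured 33.2, 33.8, 30.6 and 35.98 CPM and the male ones 6.01, 4.19, 7.15 and 5.68 CPM, again apart, with a log2 fold change of 2.54 ± 0.33 (SE, adjusted p = 6.29e-07). Both female lines stood apart from each other and from the remaining 8, which ran in overlapping steps from lot 8 female at 3.01 ± 1.95 CPM (SD, n = 4) to lot 12 male at 14.3 ± 2.92 CPM (SD, n = 3). In lots 8, 11 and 12 the female line had the lower mean, with log2 fold changes of -0.87, -0.59 and -0.59 and adjusted p-values of 0.141, 0.421 and 0.478. The lot 8 value passed without the third library of its female line (-1.39, adjusted p = 0.0259). Of the 12173 genes tested, 9.9% had a larger log2 range over the 10 lines than Snai2, and 13.5% a larger one than Snai1. Over the 5 lots the log2 fold change of Snai2 was 0.69 ± 0.74 (SE, adjusted p = 0.824). Limma voom over the 36 libraries, with 1 line correlation shared by all genes, gave 1.36 and an adjusted p of 0.0213. That p-value does not allow for how strongly the lines differ in Snai2.

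**Figure D2:**
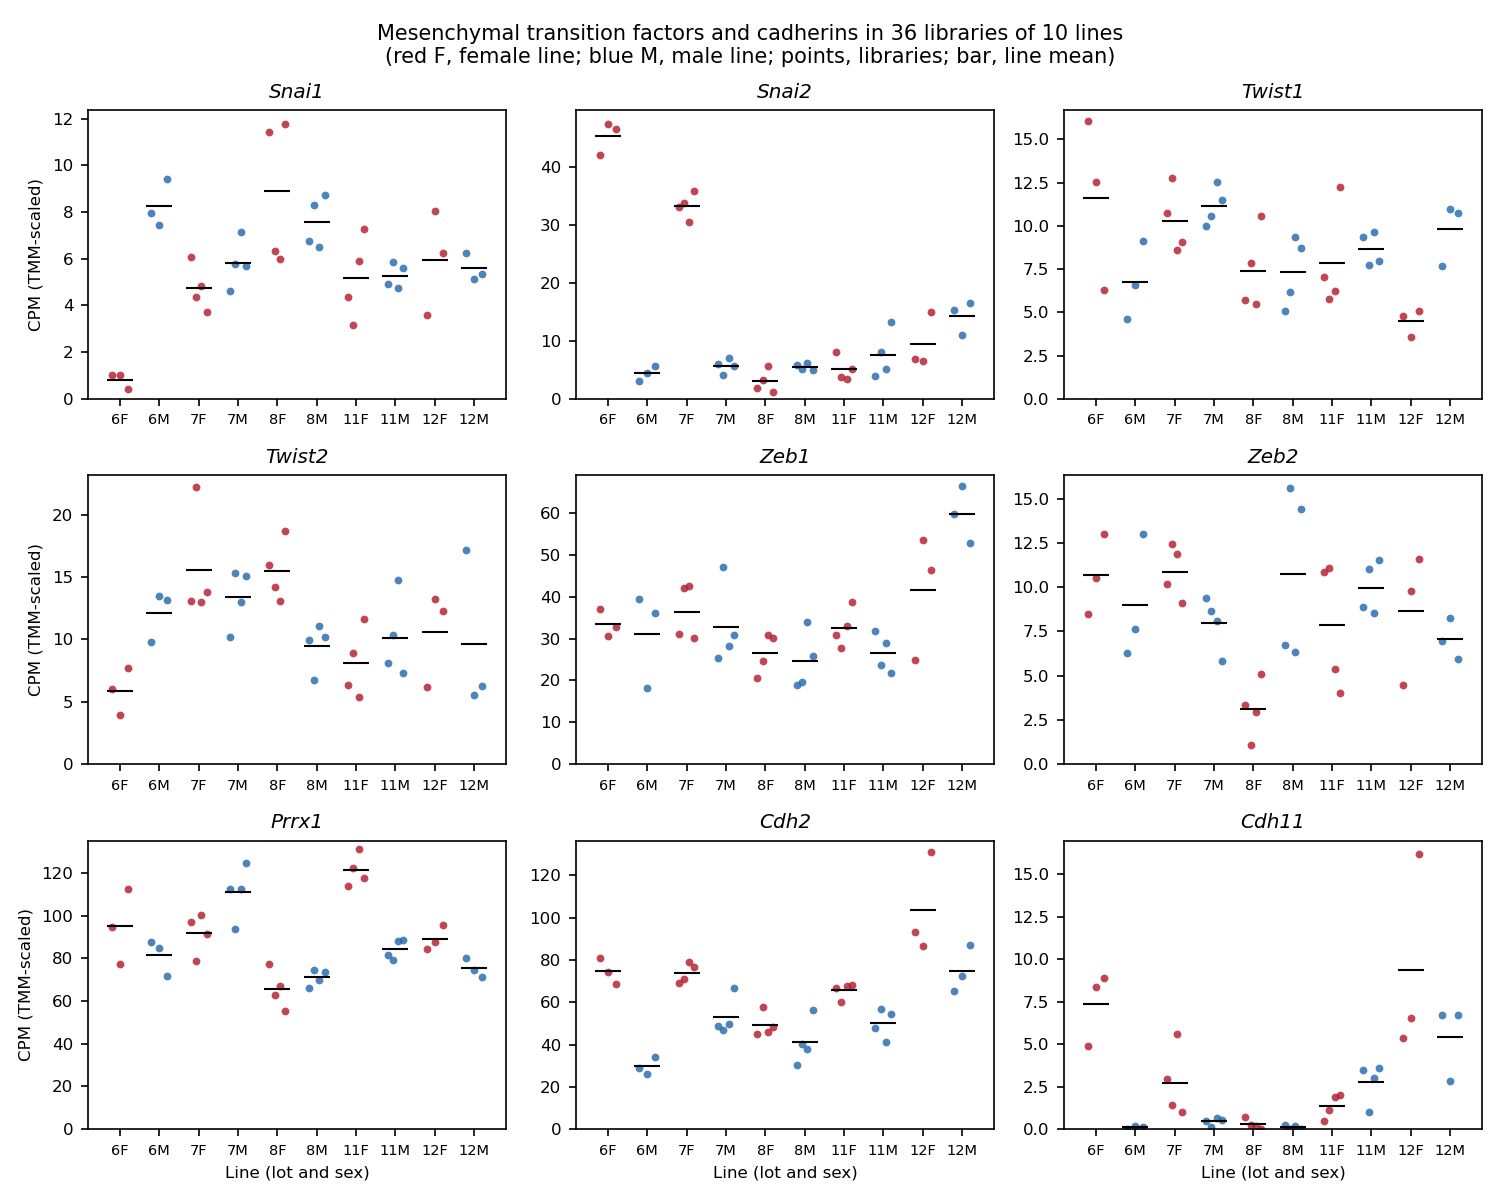
CPM of 9 genes (panels, each with its own linear axis from 0) in the 10 lines (number, lot; red F, female; blue M, male); each point is 1 library and each bar the line mean. The Snai2 panel shows the lot 6 and lot 7 female lines at 45.4 and 33.4 CPM above the other 8, and the Snai1 panel shows the lot 6 female line at 0.822 CPM below the other 9.

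Twist1 (chromosome 12, 33957671-33959829, plus strand) and Twist2 (chromosome 1, 91801461-91848028, plus strand) encode closely related factors of mesoderm and cranial mesenchyme. Their line means spanned 2.60-fold for Twist1, between 4.47 CPM (lot 12 female) and 11.6 CPM (lot 6 female), and 2.64-fold for Twist2, between 5.88 CPM (lot 6 female) and 15.5 CPM (lot 7 female). No 2 neighbouring lines in either order had separate ranges, and about 40.3% and 40.7% of tested genes had a larger range. In lot 6, Twist2 measured 6.03, 3.89 and 7.72 CPM in the female libraries and 9.81, 13.5 and 13.2 CPM in the male ones. The groups did not overlap, and the log2 fold change was -1.04 ± 0.37 (SE, adjusted p = 0.0299). This call was lost with library totals as the scale (-0.83, adjusted p = 0.0866) and when any of 4 of the 6 libraries was left out: female library 1 or 2 (adjusted p = 0.0690 and 0.154), or male library 2 or 3 (0.0876 and 0.0807).

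Twist1 in lot 6 measured 16.1, 12.5 and 6.29 CPM in the female libraries and 4.63, 6.55 and 9.12 CPM in the male ones, which overlap. Its log2 fold change of 0.77 ± 0.33 (SE) had an adjusted p of 0.0813, which became 0.0287 (0.98) with library totals, 0.0216 without the third female library and 0.0433 without the third male library. In lot 12 the female libraries measured 4.79, 3.57 and 5.05 CPM and the male ones 7.66, 11.0 and 10.7 CPM, with no overlap. The log2 fold change was -1.14 ± 0.34 (SE, edgeR adjusted p = 0.0537), and DESeq2 gave an adjusted p of 0.0394. With the replicate number as a block, neither Twist gene kept its call in the tests over lots and lines: the difference between lots had adjusted p-values of 0.0887 for Twist1 and 0.0735 for Twist2, and the difference among lines 0.112 and 0.159.

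Zeb1 (chromosome 18, plus strand) and Zeb2 (chromosome 2, 44983632-45117395, minus strand) encode the ZEB repressors. For Zeb1, no difference between the sexes was called in any lot, and the difference was not shown to vary between lots (adjusted p = 0.335). Its log2 fold changes were 0.10, 0.15, 0.11 and 0.29 in lots 6, 7, 8 and 11 and -0.52 in lot 12. It did differ among lines (adjusted p = 0.00093), from 24.6 ± 6.91 CPM (SD, n = 4) in the lot 8 male line to 59.7 ± 6.92 CPM (SD, n = 3) in the lot 12 male line. The lot 12 male libraries measured 59.9, 66.6 and 52.7 CPM and the female ones 24.8, 53.5 and 46.5 CPM. These ranges overlap, but within same-numbered pairs, which the numbers form in lot 12, the male library was higher in 3 of 3. The same held for Snai2 and Twist1, and for Prrx1 and Cdh2 the female library was higher in 3 of 3. The share of all genes with such pairs was not counted, and 3 pairs often go 1 way by chance. With the replicate block the log2 fold change of Zeb1 was -0.57 (adjusted p = 0.126). Without lot 12 the difference among lines had an adjusted p of 0.226.

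Zeb2 was lower in 1 line. The lot 8 female libraries measured 3.34, 1.09, 2.91 and 5.10 CPM and the lot 8 male ones 6.75, 15.6, 6.31 and 14.4 CPM. These ranges did not overlap, and the log2 fold change was -1.77 ± 0.38 (SE, adjusted p = 0.00138). At 3.11 ± 1.65 CPM (SD, n = 4), the lot 8 female line had the lowest mean. Its range lay apart from that of the next line by mean, lot 12 male at 7.06 ± 1.16 CPM (SD, n = 3). It was not apart from all other lines: its highest library, at 5.10 CPM, exceeded the lowest of lot 11 female (4.03 CPM) and of lot 12 female (4.49 CPM). The 9 others ran in overlapping steps up to lot 7 female at 10.9 ± 1.54 CPM (SD, n = 4). In the other 4 lots the log2 fold change lay between -0.34 and 0.45, with no call. Without lot 8, neither the test between lots nor the test among lines called Zeb2 (adjusted p = 0.490 and 0.607). Both calls were also lost without replicate 2 of every line (0.188 and 0.194), and the call among lines without replicate 3 (0.0703).

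Prrx1 (chromosome 1, 163245119-163313710, minus strand) encodes a homeobox factor of limb and craniofacial mesenchyme. Its lines differed by 1.85-fold at most, from lot 8 female at 65.6 ± 9.22 CPM (SD, n = 4) to lot 11 female at 121.2 ± 7.60 CPM (SD, n = 4), and 65.7% of tested genes had a larger range. Neighbouring lines overlapped throughout the order. The lot 11 female libraries measured 113.7, 122.3, 131.3 and 117.5 CPM and the male ones 81.6, 79.0, 88.1 and 88.3 CPM, which do not overlap. The log2 fold change was 0.52 ± 0.12 (SE, adjusted p = 0.00326), called in each of the 8 fits that left out 1 library of the lot. In lot 7 it was -0.27 (adjusted p = 0.129). In lot 6 it was 0.22 (adjusted p = 0.239), and 0.45 with library totals (adjusted p = 0.00826). Without lot 11, the difference between lots was not called (adjusted p = 0.0820).

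Cdh1 (chromosome 8, 106603351-106670246, plus strand), the target that Snail and ZEB factors repress in epithelia, had 6 counts over the 36 libraries. Library 2 of the lot 11 female line had 2 counts and library 2 of the lot 12 male line had 4, and the other 34 libraries had 0. The library with 4 counts stood at 0.570 CPM, beside a limit of 0.428 CPM for 3 counts in it, and a count of 0 allows up to 0.385 to 0.716 CPM depending on the library. Cdh1 was therefore not detectable at this depth in 34 of the 36 libraries, and it was not tested.

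Cdh2 (chromosome 18, minus strand) was the gene of the 9 whose female line had the higher fitted level in 5 of 5 lots, a pattern that 4.8% of the 12173 genes showed. In lot 6 its female libraries measured 80.8, 74.5 and 68.6 CPM and the male ones 28.9, 26.02 and 33.9 CPM, with no overlap. The log2 fold change was 1.33 ± 0.18 (SE, adjusted p = 4.07e-07). In lot 7 the female libraries measured 69.2, 70.9, 78.9 and 76.8 CPM and the male ones 48.7, 46.9, 49.5 and 66.8 CPM, also apart. The log2 fold change there was 0.48 ± 0.15 (SE, adjusted p = 0.0361), and leaving out any of 6 of the 8 libraries, all but the first female and the fourth male one, raised the adjusted p to between 0.0539 and 0.112. In lots 8, 11 and 12 the log2 fold changes were 0.25, 0.39 and 0.47, with adjusted p-values of 0.347, 0.173 and 0.146. The ranges were apart in lot 11 and overlapped in lots 8 and 12. Within the same-numbered pairs of lot 12 the female library was higher in 3 of 3, and the replicate block gave 0.46 (adjusted p = 0.0841).

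Over the 5 lots the log2 fold change of Cdh2 was 0.57 ± 0.17 (SE), with an unadjusted p of 0.00999 and an adjusted p of 0.695 by edgeR. Limma voom, with the libraries rather than the lines as units, gave 0.56 and an adjusted p of 0.00332. The size of the difference varied between lots (edgeR adjusted p = 0.00558), but not in the fit without lot 6 (0.855). That call was also lost without replicate 1 or replicate 2 of every line (0.0859 and 0.1045). The lot 6 male line was the lowest of the 10, at 29.6 ± 4.00 CPM (SD, n = 3), and the lot 12 female line the highest, at 103.8 ± 24.0 CPM (SD, n = 3). Of neighbours in the order of line means, only lot 11 female at 65.6 ± 3.79 CPM and lot 7 female at 74.0 ± 4.64 CPM (SD, n = 4 each) had separate ranges. This does not part the upper lines from the lower ones. Lot 12 male, which ranks above both, ran from 65.2 to 86.9 CPM and overlapped lot 11 female, at 59.9 to 68.0 CPM.

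Cdh11 (chromosome 8, 102632095-102785642, minus strand), a cadherin of osteoblasts, fibroblasts and other mesenchymal cells, had the widest span of the 9. Its line means ran from lot 8 male at 0.101 CPM to lot 12 female at 9.37 ± 5.92 CPM (SD, n = 3), and 2.3% of tested genes had a larger log2 range. It had 616 counts in all, a count in 32 of the 36 libraries, and it passed the filter through the lines where it was high. In lot 6 the female libraries measured 4.88, 8.36 and 8.86 CPM and the male ones 0, 0.177 and 0.150 CPM. This was 158 against 2 counts per line, a ratio of 64.5 with a 95% exact counting interval of 17.6 to 537, and the interval covers counting error only. The fitted difference had an adjusted p of 5.01e-06, and 3.86e-08 with no filter, but the male line is under the floor of 3 counts, so the fitted fold is no measure of size. In lot 7 the female libraries measured 2.93, 1.40, 5.62 and 1.01 CPM and the male ones 0.462, 0.145, 0.635 and 0.554 CPM, with no overlap. The log2 fold change was 2.57 ± 0.66 (SE, adjusted p = 0.00743), and 1.93 (adjusted p = 0.0702) without the third female library. Lot 8 had 5 female and 2 male counts, too few for a fold. In lot 11 the male line had the higher mean, 2.78 ± 1.19 against 1.38 ± 0.717 CPM (SD, n = 4 each), with a log2 fold change of -1.004 (adjusted p = 0.435). The lot 12 value was 0.79 (adjusted p = 0.620). No neighbouring lines had separate ranges. Among lots, Cdh11 had an adjusted p of 0.579 by edgeR and 0.0192 by DESeq2.

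The levels of the 9 genes were then related to each other over the 10 line sums, on a log2 CPM scale with a prior count of 2, for 36 pairs. Lines of a lot share a litter, so the 10 points are not fully independent, and each sex holds only 5 lines, too few for a value within a sex. For Cdh2 and Cdh11, Pearson's r was 0.881 (permutation p = 0.00068, Benjamini-Hochberg adjusted over the 36 pairs 0.0122) and Spearman's rho 0.939 (permutation p = 0.00021, adjusted 0.00756). The low end of Cdh11 rests on line sums of 2, 2, 5 and 12 counts (lot 6 male, lot 8 male, lot 8 female and lot 7 male), whose log2 values depend on the prior count, so the relation is given as a description of these lines. With a prior count of 0.5, r was 0.884. Without the lot 6 male and lot 12 female lines, the 2 farthest from the median of Cdh2, r was 0.846. Snai1 and Snai2 ran opposite to each other, with r of -0.794 (permutation p = 0.00052, adjusted 0.0122) and rho of -0.758 (permutation p = 0.0150, adjusted 0.0902). Without the lot 6 and lot 8 female lines r was -0.617. Zeb1 and Cdh2 passed by rank only, with rho of 0.879 (permutation p = 0.00170, adjusted 0.0306) and r of 0.624 (permutation p = 0.0525, adjusted 0.270). Their r was 0.672 without the lot 12 male and lot 8 male lines. Of the 36 pairs, 6 had an unadjusted Pearson permutation p below 0.05, and 2 stayed below it after adjustment. Snai1 and Twist2 were among the 6, with r of 0.694 (permutation p = 0.0228, adjusted 0.164) and rho of 0.515 (permutation p = 0.132, adjusted 0.367). That relation rests on 2 lines, since r was -0.02 without the lot 6 and lot 8 female lines.

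**Figure D3:**
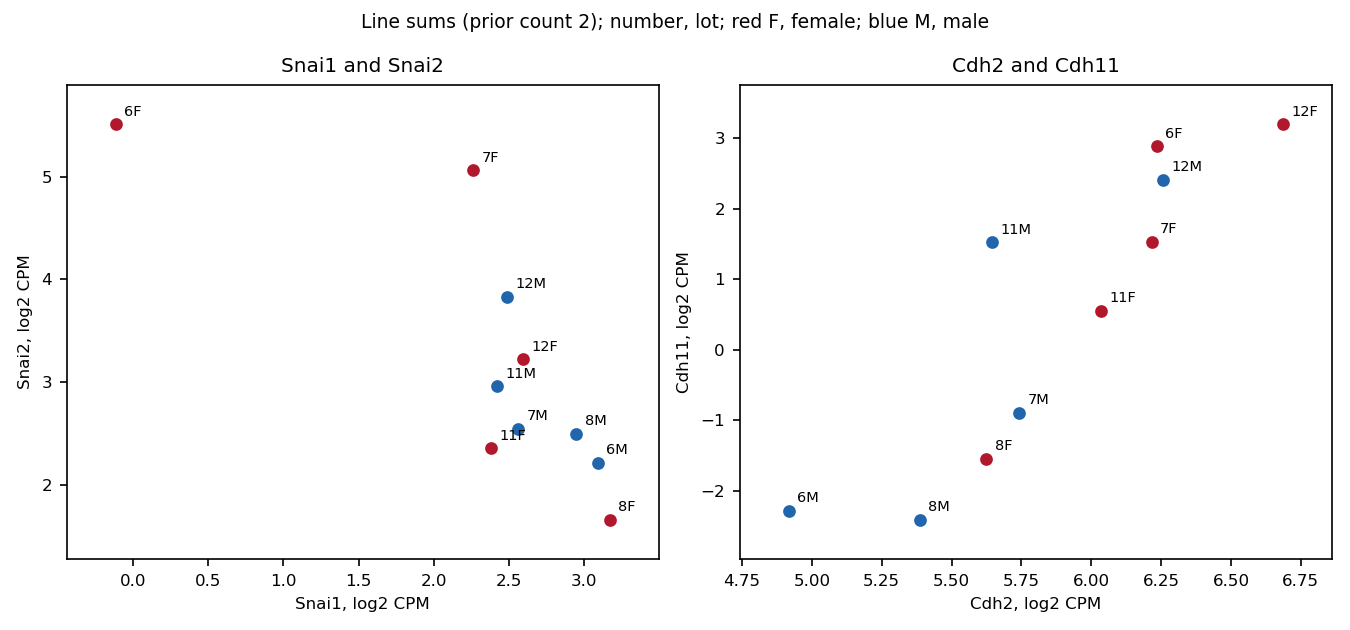
Log2 CPM of the 10 line sums (number, lot; red F, female; blue M, male) for Snai1 against Snai2 on the left and Cdh2 against Cdh11 on the right. On the left the lot 6 female line stands alone at low Snai1 and high Snai2 (r of -0.794), and on the right both cadherins are low in the lot 6 male line and high in the lot 12 female line (r of 0.881).

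Among 6411 well expressed genes (a mean of 3 or more in log2 CPM), those most like each member over the 10 lines were taken by Pearson's r, with no test, since the highest of so many is always high. Snai1 was most like Polr3d (r = 0.981), Srebf1 (0.970) and Mrpl52 (0.969), all lowest in the lot 6 female line. For Snai2 these were Gpr108 (0.976), Cebpd (0.960) and Crct1 (0.958), all highest there. Twist1 was closest to Faf1 (0.912), and Twist2 to Cavin4 (0.953). Utrn, the dystrophin relative utrophin, was closest to Zeb1 (0.956), and Arl6ip6 to Zeb2 (0.920). Prrx1 was nearest to Armc1 (0.904). Dpysl3 (0.940) and Hsbp1 (0.931) were among the genes nearest to Cdh2. For Cdh11 they were Tagln, Tmeff2 and Hsbp1, each at 0.960. Tagln, the smooth muscle protein transgelin, lay between 295 CPM (lot 8 male) and 2267 CPM (lot 6 female). Hsbp1 was thus among the 3 nearest genes of both mesenchymal cadherins.

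Genes around these members were examined as lists, with the background shares given above for each lot. Of 19 other cadherins 4 passed the filter, and 3 had no count. Cdh4, the R-cadherin of the developing nervous system, had 399 counts or 18.4 CPM in the lot 6 female line and between 0 and 2 counts in each of the other 9 lines. Against the lot 6 male line, which had 0 counts, it was at least 109-fold higher, with 3 counts over the line as the floor. Cdh4 passed the filter only through the line where it was high, so this is a description and no test. Cdh13, the cadherin without a cytoplasmic tail, was lower in the lot 7 female line, at 35.1 against 105.9 CPM (log2 fold change of -1.59 ± 0.28, SE, adjusted p = 8.28e-05).

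Of 14 genes of the cadherin-catenin complex 13 were tested within lots. Lot 6 had 4 higher and 1 lower in its female line, lot 7 had 3 and 1, lot 8 had 4 and 1, lot 11 had 0 and 2, and lot 12 had 0. Ctnnd1, which encodes the catenin that binds and stabilises cadherins at the membrane, had 86.8 CPM in lot 6 females and 11.3 CPM in males of that lot, a log2 fold change of 2.94 ± 0.24 (SE, adjusted p = 3.56e-12). It was also higher in the lot 7 female line, by 1.14 ± 0.20 (SE, adjusted p = 9.51e-05), at 25.3 against 11.4 CPM. Jup, the plakoglobin of junctions and desmosomes, was higher in the female lines of lots 7 and 8, by 1.02 and 2.15, and lower in that of lot 11, by -0.93. Nectin2, an adhesion receptor that is linked to cadherin junctions, was higher in the female lines of lots 6 and 7, by 1.85 and 1.16.

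**Figure D4:**
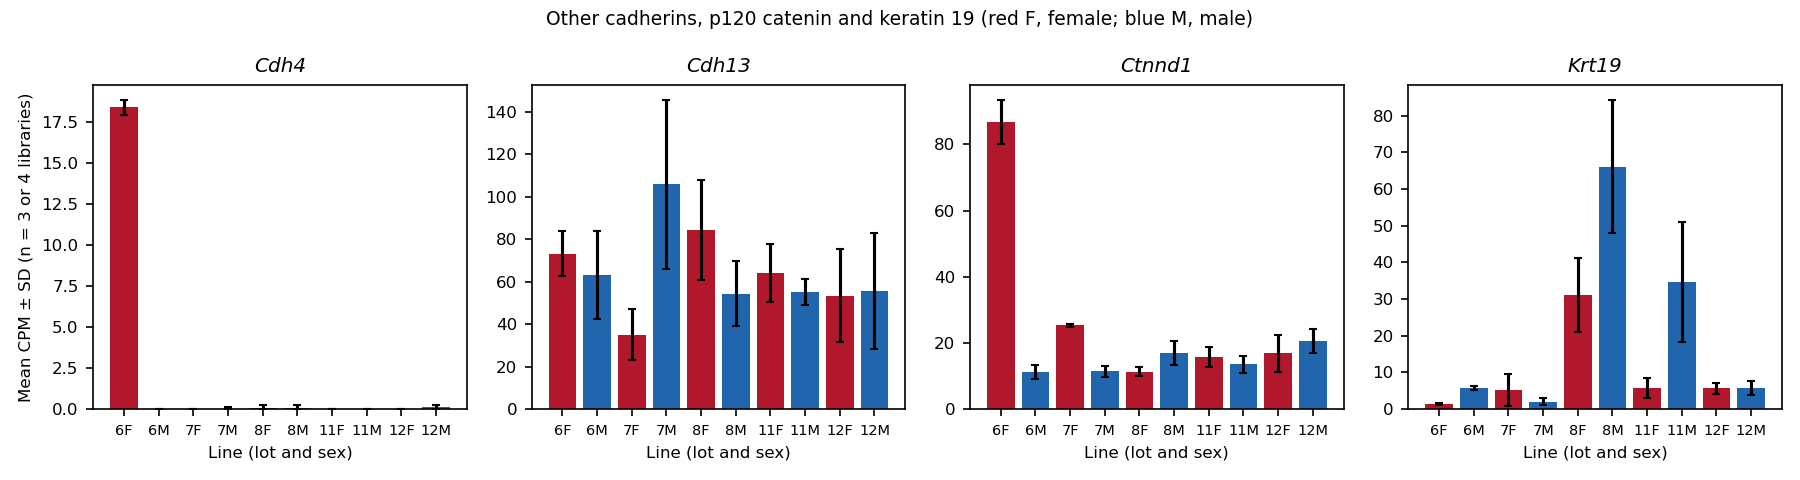
Mean CPM with SD (n = 3 or 4 libraries) of 4 junction and epithelial genes in the 10 lines (number, lot; red F, female; blue M, male), each panel with its own axis from 0. Cdh4 and Ctnnd1 are highest in the lot 6 female line, at 18.4 and 86.8 CPM, Cdh13 in the lot 7 male line at 105.9 CPM, and Krt19 in the lot 8 male line at 66.1 CPM.

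The epithelial list was mostly silent. Of its 36 genes 9 had no count, 5 had a mean over 1 CPM and 7 were tested. These included Krt18, Krt19, Pkp2 and Tjp1, a tight junction scaffold that is also used outside epithelia. Krt19, a simple epithelial keratin, stood at 31.0 and 66.1 CPM in the lot 8 female and male lines and at 34.7 CPM in the lot 11 male line, and at 1.42 to 5.77 CPM in the other 7. The female line had less of it in lot 6 (-1.99, adjusted p = 0.00844) and in lot 11 (-2.58, adjusted p = 4.02e-05). In lot 8, the partner keratins Krt18 and Krt8 were both higher in the female line: Krt18 at 9.58 against 0.0963 CPM, and Krt8 with 44 counts against 0, at least 15.3-fold with 3 counts over the line as the floor.

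The mesenchymal product list, of extracellular matrix, integrin and contractile genes, had 35 of 37 genes tested. Lot 6 had 15 higher and 8 lower in its female line, lot 7 had 15 and 4, lot 8 had 7 and 4, lot 11 had 1 and 5, and lot 12 had 3 and 1. The median log2 fold change of the list was 0.63 in lot 6 and 0.68 in lot 7, beside 0.06 and 0.01 over all genes. The 4 genes of smallest p in lot 6 were Tagln, higher by 2.32 ± 0.19, Cnn1, higher by 5.34 ± 0.50, the matrix proteoglycan gene Bgn, lower at -3.77 ± 0.37, and Acta2, higher by 1.61 ± 0.16 (SE). In lot 7 Acta2 was higher by 2.58 ± 0.14, the collagen cross-linking enzyme Lox by 2.51 ± 0.24 and Col5a1 by 2.11 ± 0.22 (SE). Collagen genes did not follow in every lot: Col1a1 was lower in the lot 8 female line, at 7.49 against 79.6 CPM (-3.41 ± 0.35), and Col1a2 was lower in the lot 12 female line (-3.74 ± 0.45, SE). None of the 34 genes tested over the 5 lots passed, but that edgeR test called 0 of all 12010 genes, so this says nothing particular to the list.

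Upstream, of 20 tested genes of TGF-beta, BMP and Notch signalling, 5 were higher and 0 lower in the lot 6 female line, 6 and 0 in lot 7, 5 and 0 in lot 8, 0 and 2 in lot 11, and 1 and 0 in lot 12. Over all genes tested the shares called were 27.6%, 10.8%, 11.4%, 4.33% and 3.8%, so the lot 6 count was near its share. The 2 lower genes of lot 11 were Notch2 (-2.94, edgeR adjusted p = 0.00249) and Skil (-1.595, adjusted p = 0.00833). Hes1, a Notch target, was called higher in the female lines of lots 6, 7 and 8, by 1.35, 0.74 and 0.74. The ligand gene Tgfb3 was higher in lots 6 and 7, by 1.19 and 1.09. The TGF-beta co-receptor Tgfbr3 had 88 counts in the lot 6 female line and 0 in the male line, at least 24.0-fold higher. Over the 5 lots, Tgfb3 (0.70 ± 0.20, SE) had an unadjusted p of 0.00861 and an adjusted p of 0.695.

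Among 20 partner genes, the E proteins, Id proteins and corepressors that work with Twist, Snail and ZEB factors, 3 were higher and 5 lower in the lot 6 female line, 2 and 1 in lot 7, 1 and 1 in lot 8, 0 and 0 in lot 11, and 1 and 1 in lot 12. Over all genes tested the shares called were 27.6%, 10.8%, 11.4%, 4.33% and 3.8%, so the counts in lots 7 and 8 were near theirs. The corepressor Ctbp2 was higher in lot 6, at 30.8 against 13.8 CPM (1.16 ± 0.26, SE, adjusted p = 0.000764). Tcf4, an E protein that dimerises with Twist, was higher in the lot 7 female line by 0.75 and lower in the female lines of lots 8 and 12 by -1.11 and -0.63. Of 16 tested other factors tied to mesenchymal cells, 0 were higher and 5 lower in the lot 6 female line, a number of calls near the 27.6% of all genes. Among the 5 was Osr1 at 0.353 against 39.2 CPM (-6.67 ± 0.53, SE, edgeR adjusted p = 1.90e-12). Osr1 was also lower in the female lines of lots 7 and 11, by -1.96 and -3.05. In lots 7, 8, 11 and 12 the counts on that list were 1 higher and 2 lower, 3 and 3, 0 and 3, and 1 and 1. Prrx2, the paralog of Prrx1, was lower in the female line in lot 11 (-1.33) and lot 12 (-2.08) and higher in lot 8 (1.48), whereas Prrx1 was higher in lot 11 (0.52) and was not called in lots 8 and 12.

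Markers of other cell types were mixed for fibroblasts and mural cells and low for the others. Of 16 fibroblast markers 7 had a mean over 1 CPM, and their sum lay between 83.6 CPM (lot 8 female) and 345 CPM (lot 12 male). Lum had no count, and Dcn and Pdgfra reached at most 1.27 and 1.29 CPM. Mural cell markers gave 3 of 9, with sums between 25.0 CPM (lot 6 female) and 94.0 CPM (lot 12 male), most of it Pdgfrb and Mcam. Endothelial markers gave 1 of 9 with sums of 3.68 to 26.3 CPM, microglial markers 2 of 12 with 2.71 to 10.6 CPM, oligodendrocyte markers 1 of 8 with 8.66 to 14.9 CPM and ependymal markers 1 of 8 with 0.715 to 6.31 CPM. Fibroblast and mural sums were highest in the lot 12 lines, at 324 and 345 CPM and at 86.8 and 94.0 CPM, where Cdh2 and Cdh11 were also among their 3 highest line means. The 12 astrocyte markers summed to 146 and 186 CPM there. The fibroblast sum was also above the astrocyte sum in both lot 7 lines, lot 6 female and lot 11 male. It was below in both lot 8 lines, lot 6 male and lot 11 female. The lists differ in length and genes, so these sums are not shares of cells. In lot 6, where the 5 genes were called, the fibroblast sum was 197.1 CPM for the female against 166.0 CPM for the male line, and the mural sum 25.0 against 29.4 CPM. Single markers differed more than these sums: of 8 fibroblast markers tested in lot 6, the female line had 4 higher and 1 lower, with a median log2 fold change of 2.17 beside 0.06 over all genes. Col6a2 (3.45) and Col6a1 (2.05) were higher and Fbln2 (-3.58) lower, and of 3 mural markers Mcam was lower (-1.66). In lot 7 the fibroblast calls were 1 higher and 1 lower, and in lot 8, 2 and 1. Their part in these results was not tested.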

How the data were processed

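BRB-seq counts of polyadenylated RNA from 36 libraries of 10 transformed astrocyte lines were used. The deposited values are raw counts, per the labels, in whole numbers with 1 row per Ensembl gene. In the submitters' processing notes, GRCm38 is the genome, with cutadapt 2.10, STAR 2.7.6a and Subread 2.0.2 as tools; the role of each, the annotation and any collapse of molecular identifiers are not given in the sources used here, so floors and intervals cover counting error only. All 36 columns were used.

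Of 46078 identifiers, 45229 were matched to symbols in GENCODE M21. The 10 members and the gene lists were chosen with earlier results of these data known, so no list is independent evidence. All members are named; of each other list, up to 4 genes by smallest p in a comparison were eligible, with other values given only as levels. Likeness took 3 genes per member. Some genes that these rules take are not reported here.

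Counts were fitted with edgeR 4.0.16 (quasi-likelihood, filterByExpr, TMM) in R 4.3.3: 10 line sums with lot and sex, and 36 libraries with 1 coefficient per line. Benjamini-Hochberg adjustment ran over all genes tested, at 0.05. Log2 fold changes set the female over the male line, and CPM use TMM-scaled sizes. Correlations had 100000 two-sided permutations. Python 3.11.15, pandas 2.3.3, scipy 1.17.1 and matplotlib 3.10.9 served for tables and plots. The scripts were tested on simulated data. Alternatives were other scalings, no filter, DESeq2 1.42.0, limma 3.58.1 voom, a prior count of 0.5, the libraries of a lot alone, a replicate block, and leaving out libraries, replicate numbers or lots; the lot alone with a replicate block was added after the data were seen.

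Replicate numbers were checked for pairing by correlating residuals of same-numbered female and male libraries. Correlations were 0.283 to 0.449 in lot 12, where all 3 pairs exceeded 0.1, and the numbers were taken to pair the samples there. In lots 6, 7, 8 and 11, 0 of 3, 3 of 4, 1 of 4 and 2 of 4 pairs exceeded 0.1, and by this cut the numbers were not taken as pairs. In lots 7 and 11, however, all same-numbered correlations (0.035 to 0.198 and 0.058 to 0.172) exceeded those of unlike numbers (at most 0.026 and 0.056). The main tests ignored this weaker pairing, and the fit with a replicate block takes it in. In lots 7, 8 and 11 the highest same-numbered correlation was that of replicate 4. Replicate 4 libraries also differed as a set: mitochondrial genes took 0.251 to 0.349% of their counts, beside 0.461 to 0.775% in the other libraries. Lots 6 and 12 hold no replicate 4. What sets these libraries apart was not tested.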

Additional observations from a re-analysis of the deposited data

Results flagged for a closer look

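The female to male difference was unlike between lots for 8 of the 9 tested genes by the edgeR interaction test over libraries, with adjusted p-values of 7.66e-06 for Snai1, 2.41e-09 for Snai2, 0.0311 for Twist1, 0.0428 for Twist2, 0.00593 for Zeb2, 0.00157 for Prrx1, 0.00558 for Cdh2 and 9.79e-05 for Cdh11. Of 12173 genes, 29.9% passed this test. Without Cdh11, which passed the filter through the lines where it was high, the count was 7 of 8. Besides the replicate block, the Twist1 call was lost with no filter (0.103), without lot 6 or 12 (0.157 and 0.311) and without replicate 1 or 2 (0.245 and 0.408). The Twist2 call was lost with library totals (0.0652), without lot 6 or 8 (0.378 and 0.201) and without replicate 2, 3 or 4 (0.358, 0.0808 and 0.0579).

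In 4 of 72 groups of 4 or more values, 1 value stood far from the others; chance alone gives about 1 in 20. Library 2 of the lot 7 female line held the highest Twist2 of its line, at 22.2 CPM. Zeb1 in the lot 12 male line, at 59.7 CPM, stood above the other 4 male lines. Library 4 of the lot 7 male line held the highest Cdh2 of its line, at 66.8 CPM, and library 2 of the lot 11 female line the lowest of its line, at 59.9 CPM.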

How the results depend on the processing

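Of the results for single members under all alternatives, 980 kept their direction and side of the threshold, 47 lost their call, 9 gained one and 22, none of them called, changed sign; the causes were not tested. Over the 5 lots, 0 genes were called for sex by edgeR, 3 with no filter, 56 by DESeq2 and 491 by limma voom, whose units are libraries rather than lines. For any difference among lots, 3 became 41 with no filter, 458 by DESeq2 and 0 to 9 when a lot was left out. In lot 12, 463 became 106 in a fit of that lot alone, where fewer genes and samples enter, and 228 to 731 when 1 library was left out. The 3643 genes whose difference varied between lots became 2003 without lot 6, and 1906 to 3860 over the fits that left out a lot or a replicate number.

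Over the 5 lots, Twist2 turned to 0.0713 with library totals and 0.0464 by voom. Leaving out 1 lot at a time gave log2 fold changes of -0.346 to 0.127 for Twist1, -0.203 to 0.234 for Twist2, -0.0398 to 0.169 for Zeb1 and -0.382 to 0.146 for Zeb2. Leaving out 1 library gave -0.171 to 0.300 for Zeb1 in lot 6, -0.0144 to 0.288 for Twist2 in lot 7, -0.213 to 0.153 for Twist1 in lot 8, -0.237 to 0.157 for Snai1 in lot 11, and -0.186 to 0.357 for Snai1 and -0.134 to 0.825 for Twist2 in lot 12. The relation of Twist1 with Cdh2 had r of 0.153 with library totals.

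With the replicate block, calls were 3553, 1684, 1708, 668 and 667 in lots 6, 7, 8, 11 and 12, 4000 between lots and 4746 among lines; lot 12 alone gave 665 with it and 106 without. Apart from Twist1 and Twist2 between lots and among lines, no member's call changed. Library totals moved the share of calls higher in the female line from 49.0 to 68.9% in lot 6, to 60.2% (from 659 of 1319) in lot 7, 56.2 to 68.6% in lot 8 and 45.8 to 57.2% in lot 12. The depth limits Cdh1 and the lines with few Cdh11 counts. In fits of lots 7 and 8 alone Cdh11 did not pass the filter on low counts. Its lot 7 call was thus not tested there, and 2 members were called in lot 7 alone.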
